A study of Homo sapiens with 2 samples.

Results

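Adaptors, RAS and RAF-type genes, MEK and ERK kinases, and PI3K, AKT and mTOR genes were described in H1993, an established human lung adenocarcinoma cell line that carries extra copies of the receptor gene MET. The list holds 49 genes, and all 49 were found by symbol among the 18944 genes of the deposited count table. The resistant group is a derivative of H1993 selected stepwise in the MET kinase inhibitor PHA665752, in doses from 1 nM up to 1 µM, then held at 1 µM and taken off drug for 1 week ahead of experiments. The parental group is H1993 itself. Both were grown in RPMI-1640 with 10% serum. The derivative comes from a line with the amplified gene, and its copy number was not measured here. The labels list PHA665752 as the treatment of the resistant library and DMSO as that of the parental one, and do not state whether drug was present at harvest or whether the derivative is 1 clone.

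There was 1 library per group, so no difference has a replicate check, no p-value is given, and every interval covers counting error only. The resistant library held 17086748 counts and the parental library 16723181. Epithelial markers reached 1 CPM (counts per 1000000 counts of the scaled library) for 8 of 8 genes in both libraries. They summed to 8596 CPM in the resistant and 8027 CPM in the parental library, but did not move together. On the log2 scale, resistant over parental, EPCAM (-1.25), CLDN4 (-0.87), CDH1 (-0.69) and KRT19 (-0.63) were lower. KRT8 (0.35), KRT18 (0.33), ELF3 (0.08) and KRT7 (0.05) were higher. Of 5 lung lineage markers, only NKX2-1 passed 1 CPM in either library, and NAPSA and SFTPA1 had 0 counts in both. Fibroblast markers passed 1 CPM for 1 of 6 genes in each library, and summed to 14.96 CPM in the resistant and 20.9 CPM in the parental library. The endothelial markers PECAM1, VWF and KDR had at most 1 count in either library, while CDH5 had 495 counts in the resistant and 5 in the parental library. Leukocyte markers passed 1 CPM for 1 of 5 genes in the resistant and 2 of 5 in the parental library, and CD3E had 0 counts in both.

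A receptor tyrosine kinase such as MET passes its signal through adaptor proteins to exchange factors that load RAS with GTP. RAS then switches on a kinase chain of RAF, MEK and ERK, with the RSK kinases among its last steps, and the same receptors recruit PI3K, a lipid kinase of paired catalytic and regulatory subunits, upstream of AKT and mTOR. In MET-amplified lung cancer cells these branches are known to carry much of the growth signal from MET. RNA levels say nothing of the phosphorylation by which most of these proteins are controlled.

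Most genes of the cascade lay close together in the resistant and parental libraries. In bulk RNA, a smaller number of expressing cells and less RNA per cell cannot be told apart. The exceptions were found mainly among the RSK kinases and the PI3K subunits, where RPS6KA3, RPS6KA1, PIK3R3 and PIK3CB were lower in the resistant library. A few other genes were higher there: CBLC, PIK3CD, RRAS and INPP4B, of which CBLC and PIK3CD rested on few counts. A gene was called when its log2 ratio, resistant over parental, passed a given fold and its exact 95% interval excluded 0. At 2-fold, 4 of the 49 genes were higher and 4 lower, that is 8.16% each way. A gene was tested when either library reached 1 CPM, and of all 12245 such genes 12.1% were higher and 8.29% lower by the same rule, or 20.4% in either direction, against 16.3% of the cascade. At 1.5-fold, 7 cascade genes were higher and 7 lower, or 28.6% in all, while 19.3% of all tested genes were higher and 16.4% lower, 35.7% in all. These shares lie near or below the background, so the counts alone do not set the cascade apart.

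All 49 genes passed the filter of 1 CPM, though CBLC and PIK3CD did so only through the resistant library, where they were higher, so the filter fixed the direction of their difference. The median log2 ratio was 0.05 over the cascade and 0.00 over all tested genes. The median absolute log2 ratio was 0.26 in the cascade, 0.41 in all tested genes and 0.34 in the 9327 tested genes with a mean of 10 CPM or more. Ratios within 0.25 of 0 were found for 23 of 49 cascade genes (46.9%) and for 33.8% of all tested genes. Among the 43 cascade genes with a mean of 10 CPM or more, 1 was at least 2-fold higher and 4 were lower (2.33% and 9.30%). The tested genes of that abundance gave 7% higher and 5.79% lower.

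**Figure D1:**
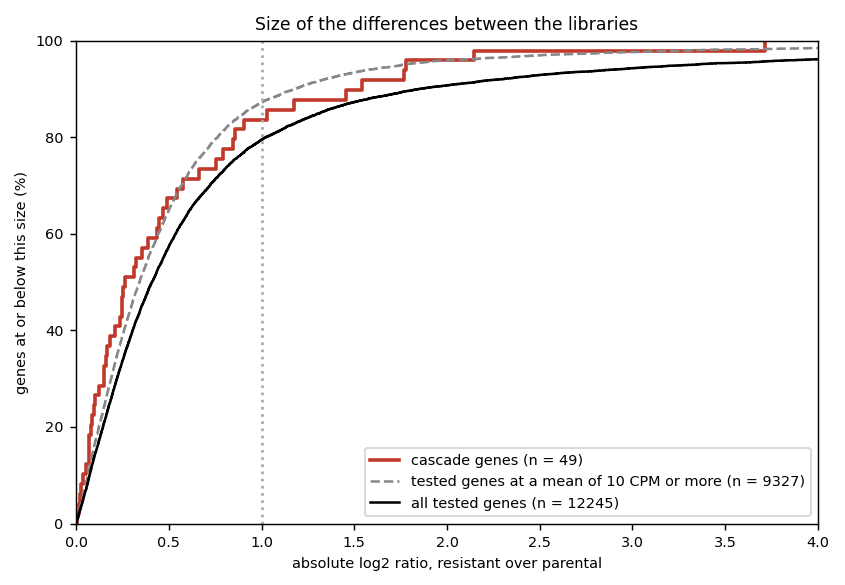
Share of genes (vertical axis, %) whose absolute log2 ratio, resistant over parental, is at or below the value on the horizontal axis, which ends at 4. The red line is the 49 cascade genes, the dashed line the 9327 tested genes with a mean of 10 CPM or more and the black line all 12245 tested genes. The median of the cascade, 0.26, lies left of the 0.41 of all tested genes.

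The 4 genes that were lower together are given here by the reference sequence around a transcription start, 250 bases before to 50 after it, from RefSeq on GRCh38.p14. The windows are RPS6KA3 at chrX:20267041-20267340 (minus strand), RPS6KA1 at chr1:26529511-26529810 (plus strand), PIK3R3 at chr1:46132580-46132879 (minus strand), PIK3CB at chr3:138834879-138835178 (minus strand). Each is the first window listed for its gene, out of 6 for PIK3R3 and 2 for each of the others, and counts per gene do not tell which start was used. Capitals mark every match, on either strand, to 1 of 5 short motifs chosen with the results known: GGGCGG (GC box), TGANTCA (AP-1), CACCTG (an E-box bound by ZEB and SNAI factors), CCGGAA (ETS core) and GGAATG (TEAD).
RPS6KA3: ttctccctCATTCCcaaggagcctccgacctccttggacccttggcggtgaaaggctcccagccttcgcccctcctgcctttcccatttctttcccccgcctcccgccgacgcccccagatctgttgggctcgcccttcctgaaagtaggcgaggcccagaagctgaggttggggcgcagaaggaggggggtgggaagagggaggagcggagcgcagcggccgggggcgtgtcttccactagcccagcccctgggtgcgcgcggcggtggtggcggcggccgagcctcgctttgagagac
RPS6KA1: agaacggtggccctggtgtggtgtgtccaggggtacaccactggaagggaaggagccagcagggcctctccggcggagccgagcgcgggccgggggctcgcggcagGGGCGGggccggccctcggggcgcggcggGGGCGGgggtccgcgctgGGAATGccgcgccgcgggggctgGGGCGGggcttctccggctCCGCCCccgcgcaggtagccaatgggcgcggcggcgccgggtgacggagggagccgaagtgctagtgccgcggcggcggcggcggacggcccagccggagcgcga
PIK3R3: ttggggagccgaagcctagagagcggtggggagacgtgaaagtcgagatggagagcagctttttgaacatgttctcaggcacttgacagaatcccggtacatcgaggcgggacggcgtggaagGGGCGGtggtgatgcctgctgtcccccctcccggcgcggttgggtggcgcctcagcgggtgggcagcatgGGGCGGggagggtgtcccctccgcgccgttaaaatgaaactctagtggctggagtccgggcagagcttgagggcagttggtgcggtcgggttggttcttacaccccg
PIK3CB: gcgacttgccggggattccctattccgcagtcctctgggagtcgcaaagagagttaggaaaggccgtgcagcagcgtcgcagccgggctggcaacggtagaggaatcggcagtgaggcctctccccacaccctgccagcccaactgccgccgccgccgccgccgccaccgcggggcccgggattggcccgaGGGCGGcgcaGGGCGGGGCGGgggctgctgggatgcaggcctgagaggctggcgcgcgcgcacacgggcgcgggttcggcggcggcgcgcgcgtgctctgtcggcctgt

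GC boxes stood 4 times in the RPS6KA1 window, 3 times in that of PIK3CB, where neighbouring matches overlap, 2 times in that of PIK3R3 and 0 times in that of RPS6KA3. Of all 35116 windows of this length in the RefSeq table, 45.0% hold at least 1, and of the 85 windows of cascade genes 61.2% do. The TEAD motif matched once each in the RPS6KA3 and RPS6KA1 windows, and 14.0% of all windows hold it. None of the 4 windows held the AP-1, E-box or ETS letters, which occur in 7.71%, 20.6% and 17.2% of all windows. GC content was 68.3% for RPS6KA3, 80.0% for RPS6KA1, 63.7% for PIK3R3 and 74.0% for PIK3CB. The median was 58.7% over all windows and 63.7% over those of cascade genes, so GC-rich windows with GC boxes are common in the cascade. Windows were found for 43 of the 49 genes. Those of RRAS, CBLC, CBL, GAB1, EIF4EBP1 and RASA2 were not used here.

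Levels of different genes are compared below only per length. For that purpose each deposited log2 value v was turned back as 2 to the power v, minus 1, a number that tracks counts divided by transcript length and is called the level per length here. Its unit is the authors' own. The highest levels per length were those of SHC1, with 125 in the resistant and 105 in the parental library, and of the MEK gene MAP2K2, with 119 in the resistant and 107 in the parental one. AKT1 followed with 98.9 in the resistant and 92.2 in the parental library, and then GRB2 with 83.6 in the resistant and 76.8 in the parental one. All 4 ranked at percentile 90.7 or higher among tested genes in both libraries. At the other end, PIK3CD was lowest in both libraries, at 0.359 in the resistant and 0.0770 in the parental library. Next above it came GAB1, at 1.04, in the resistant library and CBLC, at 0.166, in the parental one.

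**Figure D2:**
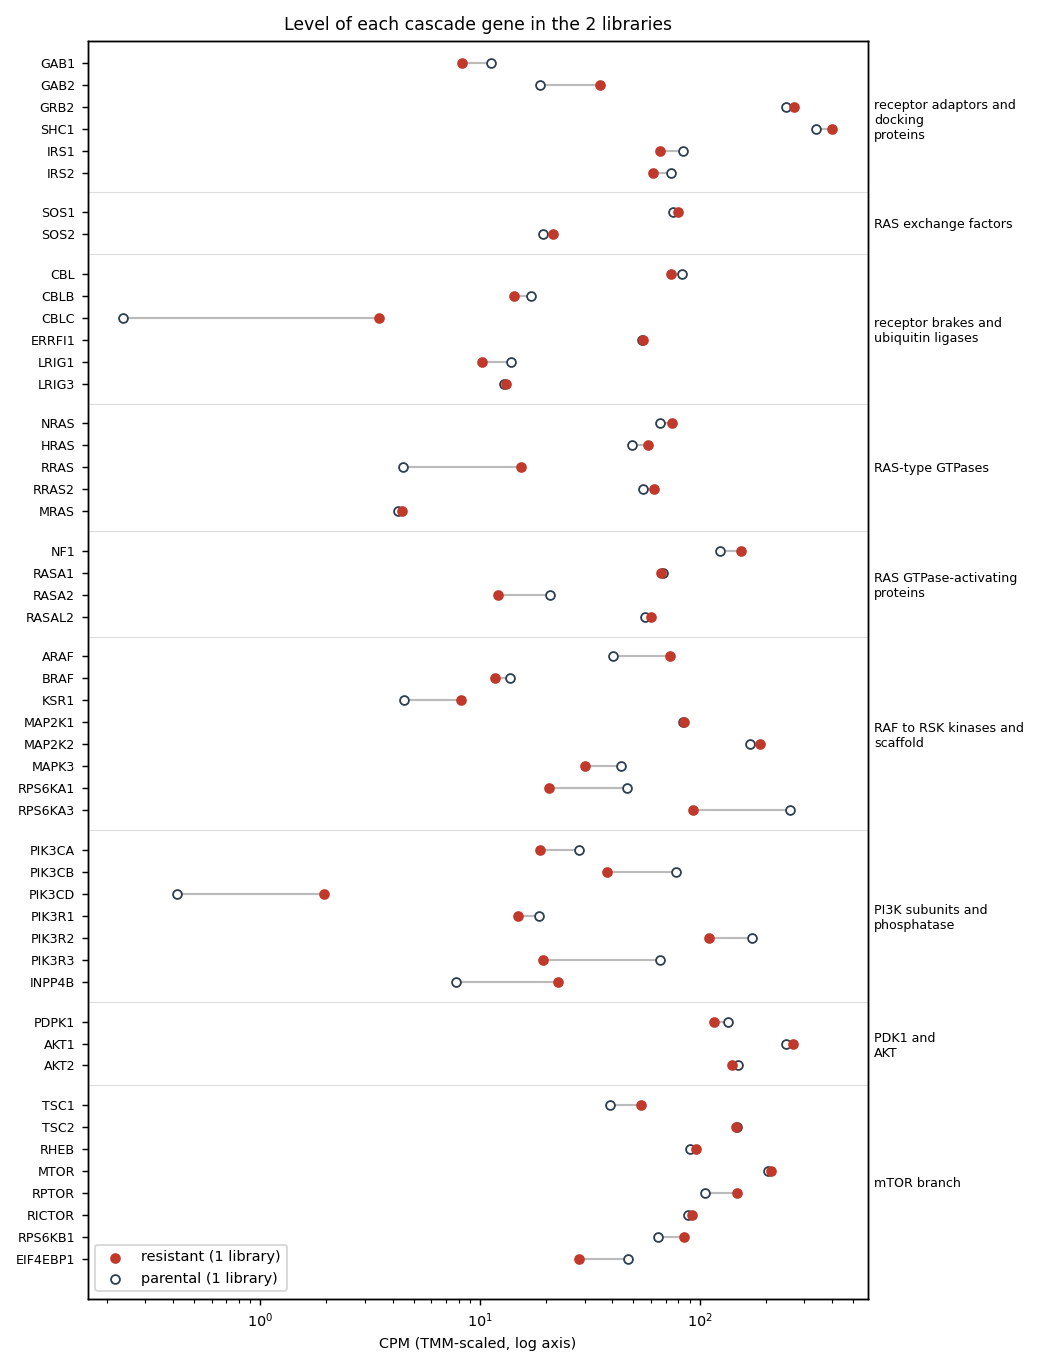
TMM-scaled CPM on a log axis for the 49 cascade genes, grouped by role, with the resistant library as filled red points and the parental library as open points, 1 library each. Grey lines join the 2 values of a gene. Long lines stand at CBLC, RRAS, PIK3CD, PIK3R3, INPP4B and RPS6KA3.

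The genes next to the receptor differed little, apart from GAB2. MET itself, the drug target, was 1.59-fold lower, at 3054 CPM in the resistant and 4859 CPM in the parental library. GRB2, the adaptor that brings the exchange factor SOS to receptors, had 269 CPM in the resistant and 247 CPM in the parental library. SHC1, an adaptor that binds GRB2, had 402 CPM in the resistant and 338 CPM in the parental library. GAB2, a docking protein that recruits PI3K, had 35.1 CPM in the resistant and 18.7 CPM in the parental library. It was 1.88-fold higher (95% interval 1.63 to 2.16), past 1.5-fold and short of 2-fold. Its relative GAB1, the docking protein best known for binding MET, had 8.31 CPM in the resistant and 11.2 CPM in the parental library, with a log2 ratio of -0.43 (-0.76 to -0.11). GAB2 therefore made up 80.9% of the counts of both GAB genes in the resistant library (exact 95% interval 77.8 to 83.6%), against 62.5% (58.1 to 66.7%) in the parental one.

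IRS1 and IRS2, docking proteins of the insulin and IGF receptors, had log2 ratios of -0.36 (-0.47 to -0.24) and -0.26 (-0.39 to -0.15). Neither passed 1.5-fold, and together they had 127 CPM in the resistant and 158 CPM in the parental library. The exchange factor genes SOS1 and SOS2 were near equal, with log2 ratios of 0.07 and 0.15 and intervals that held 0. SOS1 took 78.7% of the counts of the SOS pair in the resistant and 79.6% in the parental library, and these intervals overlapped.

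Genes that restrain receptors were close in both libraries, with CBLC as the exception. CBL and CBLB, ubiquitin ligases that send active receptors to degradation, had log2 ratios of -0.16 (-0.27 to -0.05) and -0.25 (-0.50 to 0.00). CBLC, an epithelial relative of both, had 59 counts (3.48 CPM) in the resistant and 4 counts (0.238 CPM) in the parental library. It was 13.1-fold higher (5.42 to 55.5), the largest ratio among the 49 genes, though it rested on few counts. Its share of the CBL family counts was 3.78% (2.89 to 4.85%) in the resistant and 0.237% (0.0646 to 0.606%) in the parental library. ERRFI1, an inhibitor of EGFR, was at 55.4 CPM in the resistant and 54.8 CPM in the parental library. LRIG1, which lowers ERBB and MET receptor levels, was at -0.45 (-0.74 to -0.16), but 12.9% of its exonic bases are shared with SLC25A26 (log2 ratio -0.38), so reads may be split between them. LRIG3 was at 0.03 with an interval that held 0.

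All 5 RAS-type GTPase genes had ratios above 0, and RRAS alone passed 1.5-fold. RRAS, a RAS relative studied in cell adhesion, had 261 counts (15.4 CPM) in the resistant and 75 counts (4.46 CPM) in the parental library. It was 3.43-fold higher (2.66 to 4.52), and its level per length was 19.1 in the resistant and 5.52 in the parental library. HRAS had 58.4 CPM in the resistant and 49.3 CPM in the parental library, with a log2 ratio of 0.25 (0.11 to 0.38). NRAS (0.18), RRAS2 (0.17) and MRAS (0.07) were nearer to 0, and the interval of MRAS, with 75 counts in the resistant and 71 in the parental library, held 0. Per length, HRAS gave about the same share of the 5 genes in both libraries, 50.3% in the resistant and 54.5% in the parental one, while RRAS gave 14.6% in the resistant and 5.43% in the parental one.

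Of the GTPase-activating proteins, which return RAS to its inactive state, RASA2 was lower and the other 3 were within 1.5-fold. RASA2 had 12.1 CPM in the resistant and 20.9 CPM in the parental library, 1.73-fold lower (1.45 to 2.07). With the deposited log2 values its difference of -0.58 fell just short of 1.5-fold. NF1, the neurofibromin gene, had 155 CPM in the resistant and 124 CPM in the parental library, with a log2 ratio of 0.32 (0.24 to 0.41). It has 12 named pseudogenes in GENCODE 29, and ARAF and RHEB have 3 each, and how such reads were counted is not given in the sources used here. RASAL2 was at 0.08 and RASA1 at -0.03, both with intervals that held 0, and 14.7% of the exonic bases of RASA1 are shared with CCNH. As a family the 4 genes summed to 293 CPM in the resistant and 269 CPM in the parental library.

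In the kinase chain, ARAF and KSR1 were higher and both RSK genes lower in the resistant library, with the MEK genes close to level between them. ARAF, a RAF kinase, had 72.9 CPM in the resistant and 40.5 CPM in the parental library, 1.80-fold higher (1.64 to 1.98). KSR1, a scaffold that holds RAF, MEK and ERK together, had 139 counts in the resistant and 76 in the parental library, 1.81-fold higher (1.36 to 2.43), but its difference in the deposited log2 values was 0.50, short of 1.5-fold. BRAF had 11.7 CPM in the resistant and 13.7 CPM in the parental library, and its interval held 0. Its share of the counts of ARAF, BRAF and KSR1 was 12.6% (11.0 to 14.3%) in the resistant and 23.4% (20.8 to 26.1%) in the parental library. MAP2K1 and MAP2K2, the MEK kinase genes, had log2 ratios of 0.02 and 0.15. MAPK3, an ERK kinase gene, had 30.1 CPM in the resistant and 43.8 CPM in the parental library, 1.46-fold lower (1.30 to 1.64), with an interval that excluded 0 but a ratio short of 1.5-fold.

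RPS6KA3 and RPS6KA1, which encode RSK kinases that ERK activates, were both lower. RPS6KA3 had 1590 counts (93.7 CPM) in the resistant and 4330 counts (257 CPM) in the parental library, 2.75-fold lower (2.59 to 2.91). RPS6KA1 had 20.7 CPM in the resistant and 46.7 CPM in the parental library, 2.26-fold lower (1.99 to 2.57). The pair summed to 114 CPM in the resistant and 304 CPM in the parental library, a log2 ratio of -1.41 (-1.49 to -1.34). Their relatives RPS6KA6 and RPS6KA2 had ratios above 0. RPS6KA6 had 122 counts in the resistant and 39 in the parental library, 3.08-fold higher (2.15 to 4.57), and RPS6KA2 had 787 counts in the resistant and 589 in the parental library, short of 1.5-fold. Over these 4 genes, RPS6KA3 took 55.8% (53.9 to 57.6%) of the counts in the resistant library, against 75.4% (74.2 to 76.5%) in the parental one. With RPS6KA6 and RPS6KA2 included, the sum was still lower, with a log2 ratio of -1.02 (-1.09 to -0.96).

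**Figure D3:**
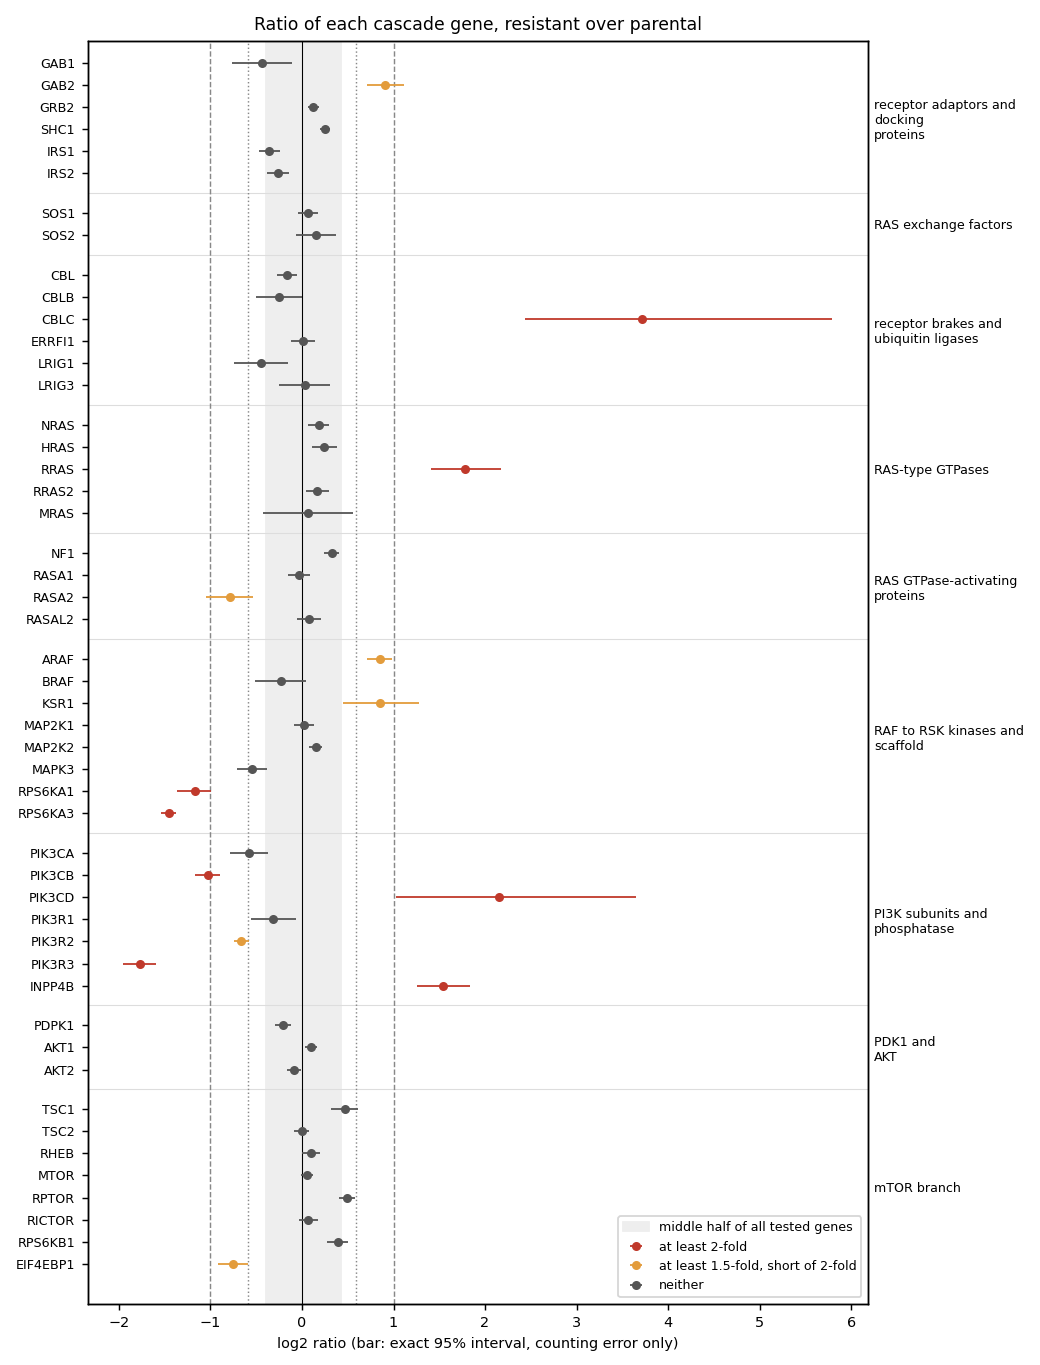
Log2 ratio, resistant over parental, of the 49 cascade genes by role, with exact 95% counting intervals as bars. Dashed and dotted lines mark 2-fold and 1.5-fold, and the grey band runs from -0.39 to 0.43, the quartiles of all tested genes. Red points passed 2-fold (4 higher, 4 lower), orange points only 1.5-fold.

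The 6 PI3K subunit genes and the phosphatase INPP4B had the largest median absolute log2 ratio of the role groups, 1.03, against 0.41 over all tested genes. Of these 7 genes 4 passed 2-fold (57.1%, against 20.4% of all tested genes), and 3 of the 4 were subunits, PIK3CD among them, which passed the filter only through the resistant library. Among the regulatory subunits, which hold and restrain the catalytic ones, PIK3R3 had 329 counts (19.4 CPM) in the resistant and 1114 counts (66.2 CPM) in the parental library. It was 3.41-fold lower (3.02 to 3.87), the lowest ratio of the 49 genes. PIK3R2, the regulatory subunit with the highest level per length, had 110 CPM in the resistant and 174 CPM in the parental library, 1.58-fold lower (1.49 to 1.68). PIK3R1 was at -0.31 (-0.56 to -0.07). PIK3R3 thus took 13.5% (12.1 to 14.9%) of the counts of the 3 regulatory genes in the resistant library and 25.6% (24.3 to 26.9%) in the parental one, and PIK3R2 took 76.2% (74.5 to 77.9%) in the resistant and 67.2% (65.8 to 68.6%) in the parental one.

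The catalytic subunit gene PIK3CB had 38.1 CPM in the resistant and 77.8 CPM in the parental library, 2.04-fold lower (1.86 to 2.25). That lies so near 2-fold that its difference in the deposited log2 values, -0.92, did not reach it. PIK3CA, the catalytic subunit gene most often mutated in cancers, had 18.9 CPM in the resistant and 28.2 CPM in the parental library, 1.49-fold lower (1.29 to 1.73), just short of 1.5-fold. With scaling by total counts its log2 ratio of -0.60 did pass 1.5-fold. In GENCODE 29, 35.8% of its exonic bases are shared with KCNMB3, which had 14 counts in the resistant and 9 in the parental library. PIK3CD, a catalytic subunit gene best known from leukocytes, had 33 counts (1.94 CPM) in the resistant and 7 counts (0.416 CPM) in the parental library. It was 4.43-fold higher (2.03 to 12.5), yet it gave only 3.30% of the catalytic counts in the resistant and 0.391% in the parental library. The leukocyte marker list, in sum, was at 32.3 CPM in the resistant and 87.4 CPM in the parental library, and PTPRC had 7 counts in the resistant and 21 in the parental one. Its part in the PIK3CD value was not tested.

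Catalytic and regulatory subunit genes were lower in sum by like amounts. The 3 catalytic genes summed to 999 counts in the resistant and 1791 in the parental library, a log2 ratio of -0.85 (-0.97 to -0.74). The 3 regulatory genes summed to 2446 counts in the resistant and 4354 in the parental library, a log2 ratio of -0.84 (-0.92 to -0.77). Sums of levels per length gave 12.0 in the resistant and 20.9 in the parental library for the catalytic genes, and 33.8 in the resistant and 59.0 in the parental library for the regulatory genes. INPP4B, a phosphatase that breaks down a lipid made downstream of PI3K, differed the other way. It had 385 counts (22.7 CPM) in the resistant and 131 counts (7.78 CPM) in the parental library, 2.91-fold higher (2.38 to 3.58).

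**Figure D4:**
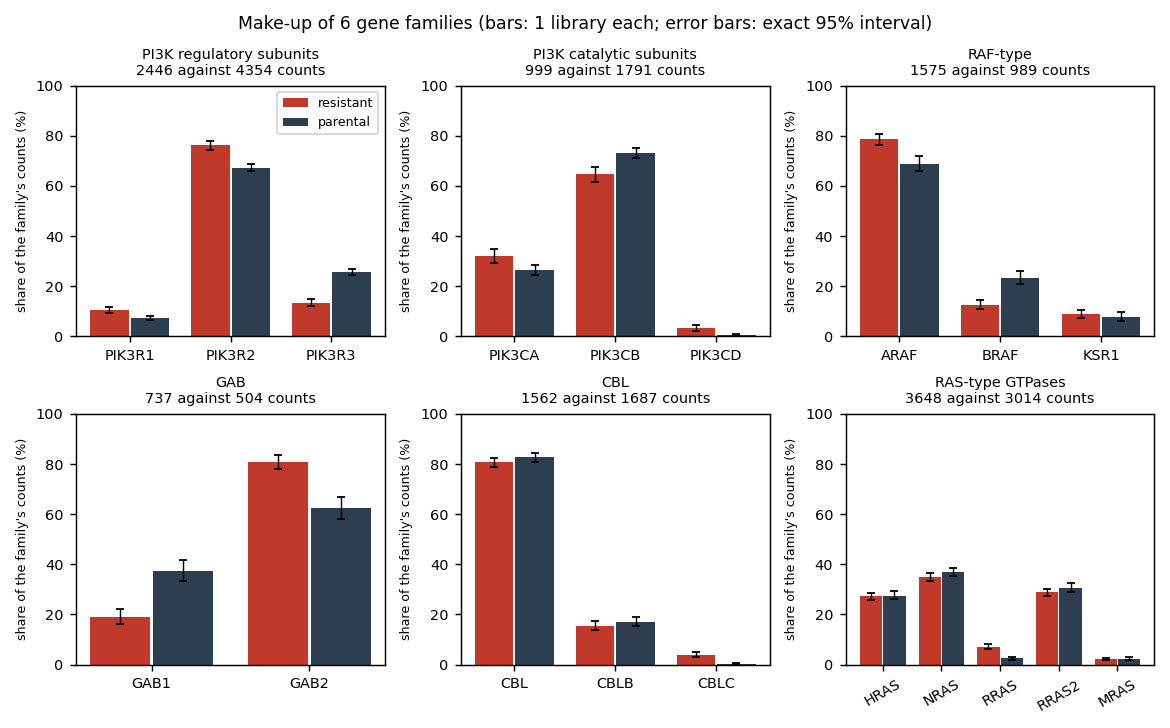
Share of a family's counts (vertical axis, %) taken by each gene in the resistant (red) and parental (dark) library, 1 library each, with exact 95% binomial intervals as error bars. Panel titles give the summed counts, resistant first. PIK3R3 and BRAF hold smaller shares in the resistant library, and PIK3R2, ARAF, GAB2 and RRAS larger ones, with intervals that do not overlap. Shares are read within a gene across libraries, since counts also depend on transcript length.

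Below PI3K, the genes of AKT and its activator were nearly level. AKT1 had 266 CPM in the resistant and 248 CPM in the parental library, and AKT2 had 141 CPM in the resistant and 150 CPM in the parental one. PDPK1, the kinase that activates AKT, had 116 CPM in the resistant and 134 CPM in the parental library, with a log2 ratio of -0.21 (-0.30 to -0.12). The AKT pair summed to a log2 ratio of 0.03 with an interval (-0.02 to 0.08) that held 0.

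The mTOR branch held 8 genes, of which 6 had ratios above 0 and only EIF4EBP1 passed 1.5-fold. MTOR, the kinase itself, had 212 CPM in the resistant and 204 CPM in the parental library, and its interval held 0. RPTOR, a subunit of the complex that promotes protein synthesis, had 149 CPM in the resistant and 106 CPM in the parental library, 1.403-fold higher (1.32 to 1.49). RICTOR, a subunit of the complex that acts on AKT, was at 0.07 with an interval that held 0. TSC1 and TSC2 form the complex that switches off the GTPase RHEB, and had log2 ratios of 0.47 (0.32 to 0.61) and 0.00 (-0.08 to 0.08). RHEB was at 0.10, with 96.3 CPM in the resistant and 90.1 CPM in the parental library. Of the mTOR targets, the kinase gene RPS6KB1 had 85.0 CPM in the resistant and 64.9 CPM in the parental library, 1.31-fold higher (1.21 to 1.42). EIF4EBP1, which represses translation until mTOR phosphorylates it, had 28.1 CPM in the resistant and 47.3 CPM in the parental library, 1.68-fold lower (1.502 to 1.89). Its level per length was 41.9 in the resistant and 70.1 in the parental library.

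Separate lists of other genes of the same pathways gave 101 tested genes, of which 14 were at least 2-fold higher and 9 lower (13.9% and 8.91%), near the background of all tested genes. Among 20 tested genes around PI3K and AKT, 6 were higher and 0 lower by the 2-fold rule, with 14 passing neither way and a median log2 ratio of 0.34. That is 30% higher, against 12.1% of all tested genes. At 1.5-fold 2 genes were lower, named here after their values were seen: PHLPP1 (-0.97), a phosphatase that acts on AKT, and PIK3R4 (-0.60), a regulatory subunit of another class of PI3K. The higher ones included INPPL1 and INPP4A, phosphatases of PI3K lipids like INPP4B. INPPL1 had 70.5 CPM in the resistant and 24.7 CPM in the parental library, 2.85-fold higher (2.55 to 3.20). INPP4A had 130 CPM in the resistant and 52.3 CPM in the parental library, 2.47-fold higher (2.29 to 2.68). SGK1, a kinase related to AKT, was 3.59-fold higher (3.24 to 3.99), and PIK3C2B, a PI3K of another class, 2.37-fold higher (2.22 to 2.54). The pseudokinase genes TRIB1 and TRIB2 were at 1.10 and 1.16 on the log2 scale.

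Among 17 tested RAS exchange factors, GTPase-activating proteins and relatives, 3 were higher and 4 lower. That is 17.6% higher and 23.5% lower, against 12.1% and 8.29% of all tested genes. DAB2IP, a GTPase-activating protein of RAS, had 70.7 CPM in the resistant and 8.44 CPM in the parental library, 8.36-fold higher (7.04 to 10.0). RASA4, of the same function, was lower, at -1.68, and has near-identical copies. The exchange factor genes RASGRP1 and RASGRP3 were higher, with 51 and 20 counts in the resistant and 13 and 7 in the parental library, but both reached 1 CPM only in the resistant library, so the filter fixed their direction. When 5 CPM was required, or with the deposited log2 values, 1 gene of this list was at least 2-fold higher in place of 3. The 4 lower were 1 with the deposited values and 2 when the whole interval had to pass 2-fold. RALB, a GTPase of the RAL type, and RGL2, an exchange factor for it, were lower, at -1.01 and -1.40.

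Adaptors outside the 49 genes had 2 higher and 4 lower of 19 tested, with a median of -0.02. The 4 lower were 1 with the deposited log2 values, and 2 when 5 CPM was required or when the whole interval had to pass 2-fold. DOK7 (2.34) and DOK4 (1.72), docking proteins, were higher. GRB14 (-1.52) and GRB10 (-1.18), adaptors that restrain insulin receptor signalling, were lower, as were SHC4 (-1.35), with 8 counts in the resistant and 21 in the parental library, where alone it passed the filter, and SH3KBP1 (-1.25), an adaptor that binds CBL. Of 17 tested genes from RAF to RSK, only RPS6KA6 passed 2-fold (5.88%, against 20.4% of all tested genes), and the median was 0.41. Its difference in the deposited log2 values was 0.90, short of 2-fold. The 28 tested mTOR genes had a median of -0.02, and 3 of them (10.7%, against 20.4%) passed 2-fold, 2 upward and 1 downward. Both upward genes reached 1 CPM only in the resistant library, and the count was 1 when 5 CPM was required or with the deposited log2 values. SESN3, a stress gene that restrains mTOR, had 348 counts in the resistant and 0 in the parental library, at least 115-fold higher when the 0 is set to the 3 counts it allows. PRR5L, which binds the RICTOR complex, had 31 counts in the resistant and 0 in the parental library, at least 10.2-fold higher on the same reckoning. DDIT4, another gene that restrains mTOR, had 55.3 CPM in the resistant and 169 CPM in the parental library, 3.05-fold lower (2.84 to 3.29).

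The differing cascade genes were also set beside their neighbours on the chromosome. The neighbours' median log2 ratio had the sign of the gene itself for 12 of the 14 genes past 1.5-fold, and not for PIK3CD and PIK3R2. The same share over all tested genes was not taken, so this count cannot be read as a trait of the cascade. Neighbours were taken as the 10 nearest tested genes in the gene order of GRCh38.p14, with 5 on each side. Over 11430 genes with 10 such neighbours, the neighbours' median log2 ratio lay between -0.60 and 0.68 for the central 90% of genes (percentiles 5 and 95). Of the 12 genes, only ARAF, KSR1, RPS6KA3 and PIK3R3 had a neighbour median outside this range. Around RPS6KA3 on chromosome X the neighbours' median was -1.24, with 9 of 10 neighbours below 0 and 6 at least 2-fold lower. These 6 were PDHA1 (-1.39), MAP3K15 (-1.22), SH3KBP1 (-1.25), MAP7D2 (0 counts in the resistant and 108 in the parental library), MBTPS2 (-1.34) and SMS (-1.28). Next to RPS6KA3, at -1.46, EIF1AX was at -0.77, and PRDX4 (-0.70) and YY2 (-0.13) were nearer to 0. RPS6KA3 was lower than 9 of the 10, all but MAP7D2. PHEX, at 41 counts in the resistant and 20 in the parental library, was the only neighbour above 0.

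PIK3R3 on chromosome 1 had all 10 neighbours below 0, as did 2.58% of all genes, with a median of -0.63. TSPAN1 (-1.51) was the only neighbour past 2-fold, and PIK3R3 at -1.77 was lower than each of the 10. Around ARAF on chromosome X all 10 neighbours were above 0, as for 3.34% of all genes, with a median of 1.10. Of these, 5 passed 2-fold: UBA1 (1.197), CDK16 (1.55), USP11 (1.48), ZNF81 (1.499) and ZNF182 (1.92). ARAF at 0.85 lay below that median. PIK3CB and RASA2 lie near each other on chromosome 3 and share some neighbours, with medians of -0.51 and -0.35. KSR1 on chromosome 17 had 9 of 10 neighbours above 0, with a median of 0.78 beside its own 0.85. RPS6KA1 (-0.04), PIK3CD (-0.09), EIF4EBP1 (-0.21), INPP4B (0.27), GAB2 (0.43), RRAS (0.46) and CBLC (0.60) had neighbour medians nearer to 0 than their own ratios. PIK3R2 at -0.66 lay among neighbours with a median of 0.25. Of the 49 genes, 6 had a neighbour median outside the central 90%, and of these LRIG3 and MRAS did not follow their neighbours. LRIG3 was at 0.03 among neighbours with a median of 0.94, and MRAS at 0.07 among neighbours with a median of -0.62. All 10 neighbours were above 0 also for AKT2, itself at -0.09 with a neighbour median of 0.55, and for GAB1, itself at -0.43 with a neighbour median of 0.36. The count of chromosome copies was not measured, and its part in these values was not tested.

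**Figure D5:**
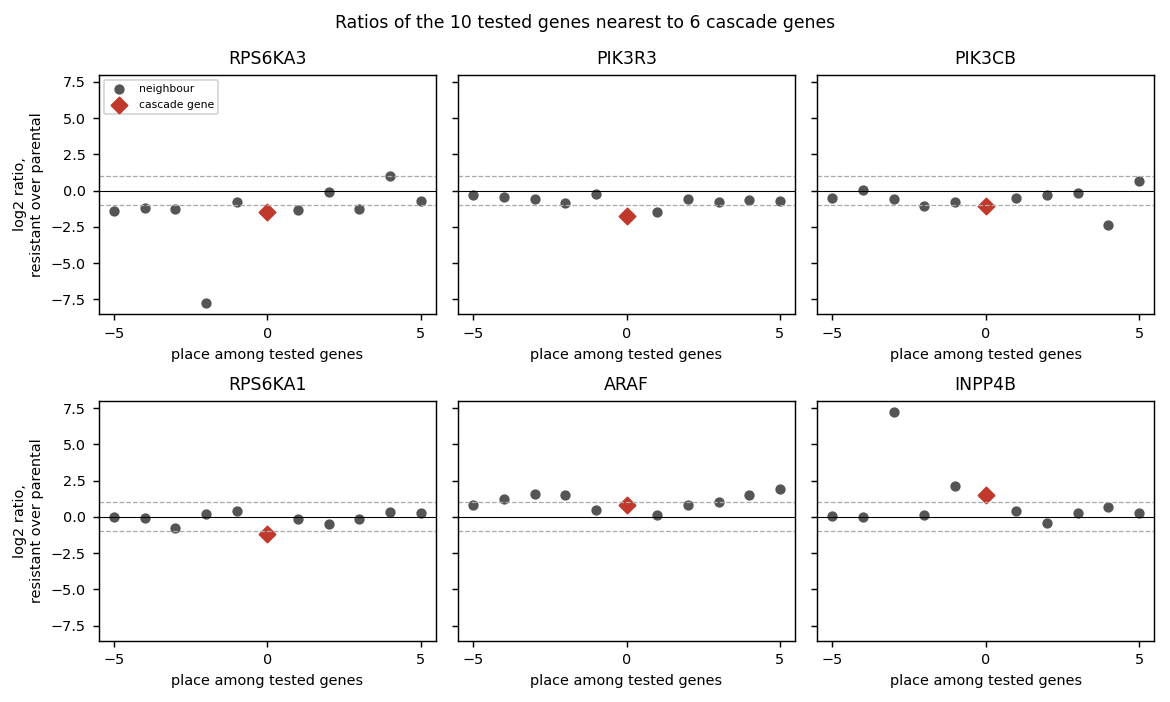
Log2 ratio, resistant over parental, of 6 cascade genes (red diamonds at 0) and of the 5 nearest tested genes on each side (grey points), in gene order. Dashed lines mark 2-fold. The genes were chosen with their values known. Around RPS6KA3 and PIK3R3 the grey points lie mostly below 0, around ARAF all 10 lie above 0, and around RPS6KA1 they scatter about 0.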

How the data were processed

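RNA was taken from 1 resistant and 1 parental library of H1993 cells, extracted with TRIzol and sequenced after TruSeq preparation, per the labels' protocols. The authors deposited raw counts by gene symbol together with normalized log2 values of the same genes, per the file headers. The resistant column was matched by its name, which is the end of that sample's library name. FastQC and STAR are named in the submitters' processing notes, which list both GRCh38 and hg19. The counting program, annotation and strand setting are not given in the sources used here, so genes that overlap or have copies are uncertain.

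Counts were scaled by edgeR 4.0.16 (TMM, R 4.3.3) to effective sizes of 16974207 (resistant) and 16834058 (parental). Ratios had 0.5 added to each count, and exact conditional binomial intervals (scipy 1.17.1) used the counts as deposited. The deposited log2 values entered as an alternative and as levels per length. Turned back, their value per count followed GENCODE 29 transcript length with Pearson's r of 0.86 across 8194 genes, which are not independent replicates. The interval was tried on simulated counts that held counting error only, which is the spread it assumes. Such data cannot show how the calls fare with differences between cultures. Other scalings (total counts, upper quartile, DESeq2 1.42.0), filters and a count addition of 1 were tried. Full values are given for genes past 1.5-fold and the largest ratio of each role, and further pathway genes are named where they passed 2-fold, except 1 that is not reported here. Members and lists were chosen with earlier results of these data known. The neighbours and the promoter motifs were chosen after seeing the data.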

Additional observations from a re-analysis of the deposited data

How the results depend on the processing

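Each of 6 scalings, filters or additions and 2 other readings of the fold left the median log2 ratio of the 49 genes between 0.02 and 0.07. Among these, dropping the filter could not move the median, since all 49 genes pass it. Requiring the whole interval past the fold could not either, since it changes only the calls. The count of cascade genes at least 2-fold higher, 4, was 2 when either library had to reach 5 CPM, and likewise 2 among genes at 1 CPM or more in both libraries, an alternative chosen after seeing the data. Both leave out CBLC and PIK3CD by construction. The count at least 2-fold lower, 4, was 2 when the whole interval had to pass 2-fold, which leaves RPS6KA3 and PIK3R3. Over all tested genes, 926 were higher and 591 lower with the deposited log2 values, and 655 were lower with the whole interval past 2-fold. The deposited values add 1 before the log, which compresses scarce genes: PIK3CD differed by 0.34 there. Over the 49 ratios, the sign changed for TSC2 with DESeq2 size factors, upper-quartile scaling and the deposited values, and for ERRFI1 with total counts, both near 0 as reported (0.00 and 0.01). No paired analysis was possible because each group has 1 library, and for the same reason no replicate could be left out. Depth limits CBLC, PIK3CD and MRAS most, with 59, 33 and 75 counts in the resistant and 4, 7 and 71 in the parental library.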
